A study of Mus musculus with 9 samples.

Results

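The genes of this account are 6 matrix metalloproteinases, Mmp2, Mmp3, Mmp9, Mmp12, Mmp13 and Mmp14, and the 4 tissue inhibitors of metalloproteinases, Timp1, Timp2, Timp3 and Timp4. They were chosen by name as members of a gene family, with earlier results of these data known, and are 10 of 54232 genes in the count table. RNA came from lacrimal glands of female C57BL/6J mice at 3 ages, 2 months, 12 months and 24 months, with 3 libraries at each age and 9 in all. The labels give no mutant allele, drug or other treatment: all mice ate ad libitum and lived with 12 hours of light and 12 hours of dark, and the titles of the youngest samples read 8W. The labels do not say whether a library came from 1 mouse or from pooled glands. The p-values therefore measure only the spread between these libraries, which may be technical.

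Matrix metalloproteinases are zinc-dependent enzymes that cut collagens, laminins, elastin, proteoglycans and also signalling proteins outside the cell. Most are secreted as inactive precursors, become active when a propeptide is removed, and are held in check by Timp proteins, which bind the active site. Many of their genes are switched on by inflammatory cytokines through the transcription factor AP-1, a dimer of Fos and Jun proteins. In the lacrimal gland, which secretes the watery part of the tear film, these enzymes are known from matrix remodelling during inflammation and repair.

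Mmp13, Mmp12 and Mmp3 lie in a cluster of 10 Mmp genes on mouse chromosome 9 and span 183.5 kb, with Mmp1b between Mmp12 and Mmp3 (GRCm38, GENCODE M21). Their upstream sequences are shown because these 3 genes of the cluster share a motif. Each line gives the 120 bases before a RefSeq transcription start, plus strand, build GRCm38.p6. Capitals mark the AP-1 letters TGAGTCA, or their reverse complement TGACTCA, and the TATA box letters TATAAA.
Mmp13: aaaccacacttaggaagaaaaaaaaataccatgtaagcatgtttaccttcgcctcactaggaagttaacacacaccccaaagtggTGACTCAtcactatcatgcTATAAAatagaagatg
Mmp12: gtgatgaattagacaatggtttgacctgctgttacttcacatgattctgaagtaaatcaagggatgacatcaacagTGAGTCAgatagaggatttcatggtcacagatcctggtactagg
Mmp3: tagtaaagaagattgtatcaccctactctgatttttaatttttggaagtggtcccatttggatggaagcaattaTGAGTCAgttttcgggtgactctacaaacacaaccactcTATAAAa
The windows are chr9:7272394-7272513 for Mmp13, chr9:7347254-7347373 for Mmp12 and chr9:7445702-7445821 for Mmp3. For Mmp12 the second of its RefSeq starts is shown, which lies inside the annotated gene. The window before that start lies outside the gene's exons. The AP-1 letters do not occur in the 250 bases before the first start of Mmp12. Counted from the start, the AP-1 letters lie at positions -35 to -29 in Mmp13, -44 to -38 in Mmp12 and -46 to -40 in Mmp3. The TATA box letters lie at -16 to -11 in Mmp13 and at -7 to -2 in Mmp3.

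The set of RefSeq upstream windows used here covered 8 of the 10 genes and held no entry for Mmp2 and Mmp9. Searched on both strands, the AP-1 letters occurred within 250 bases before a start in 3 of these 8 genes, Mmp3, Mmp12 and Mmp13. They occurred in 4.46% of all 32841 windows of that length. The TATA box letters, searched on the gene's strand, occurred in Mmp3 and Mmp13 and in 7.59% of all windows, and both motifs together occurred in 0.481%. The letters AGGAAG, the core of an ETS factor motif, occurred on either strand in 7 of the 8 genes and in 29.5% of all windows. A gene was counted if any of its windows matched, while the percentages are shares of single windows. Mmp12 had a window at each of its RefSeq starts, and its AP-1 and ETS matches lay in different windows. The counts of genes therefore cannot be set directly against these percentages. None of the matches in the 8 genes overlaps another, and a match is a description of the sequence, not a site of binding.

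Depth was even, from 40516863 to 42573877 counts per library, and 14944 genes passed the filter on low counts. The glands carried their defining markers: the summed level of 7 lacrimal epithelial genes was 148000 to 233000 CPM (counts scaled to library size) in every library. Nearly all of it was Obp1a, with means of 195000, 166000 and 160000 CPM at the 3 ages. The next highest, Ltf, had 1320, 1360 and 1340 CPM. Some libraries stood apart. Replicate 3 at 24 months differed most from the others of its age. Transcripts of 9 salivary gland genes summed to 860 CPM in replicate 3 at 2 months, 379 in replicate 2 at 12 months and 252 in replicate 2 at 24 months, against 0.573 to 72.8 in the other 6. Transcripts of 7 skeletal muscle genes summed to 26.7 and 52.8 CPM in replicates 1 and 3 at 12 months, against 0.324 to 1.21 elsewhere. In whole tissue, more cells of a type and more RNA per cell cannot be told apart.

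Per length, Timp2 was the most abundant of the 10 transcripts at every age. Its level was 10.1 ± 0.519 CPM per kilobase of the principal transcript at 2 months (SD, n = 3), 13.1 ± 0.857 at 12 months and 19.3 ± 3.28 at 24 months. Mmp3 came second with 3.56 ± 0.816, 4.41 ± 0.847 and 8.72 ± 2.08 CPM per kilobase, and Mmp2 followed with 2.1 ± 0.346, 2.14 ± 0.236 and 4.0 ± 1.25. Mmp14 was next at every age, with 1.1 ± 0.0911, 1.67 ± 0.369 and 2.29 ± 0.905 CPM per kilobase. Timp2 thus made up 57.1%, 55.4% and 52.4% of the per-length total of the 10 transcripts at the 3 ages.

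Below these, the order at 2 months was Timp3 (0.325 CPM per kilobase), Timp1 (0.226), Mmp12 (0.211), Mmp9 (0.105), Mmp13 (0.0488) and Timp4 (0.00501). At 12 months Mmp12 stood at 1.65 ± 0.636, next to Mmp14, and its share of the total was 6.86 ± 2.2%, against 1.17 ± 0.244% at 2 months. At 24 months its share was 2.92 ± 1.71% and its level, 1.02 ± 0.464 CPM per kilobase, lay beside that of Timp3 at 0.986 ± 0.0815. Neighbours whose ranges of mean ± SD overlapped were Timp3, Timp1, Mmp12, Mmp9 and Mmp13, each with the next, at 2 months. At 12 months they were Mmp2 with Mmp14, Mmp14 with Mmp12, Timp1 with Mmp9 and Mmp9 with Timp4. At 24 months they were Mmp2 with Mmp14, Mmp14 with Mmp12, Mmp12 with Timp3, Timp1 with Timp4 and Timp4 with Mmp13. With the length of all annotated exons, a choice made after seeing the data, 3 pairs of overlapping neighbours changed places: Timp3 and Timp1 at 2 months, Mmp14 and Mmp12 at 12 months, and Mmp12 and Timp3 at 24 months.

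**Figure D1:**
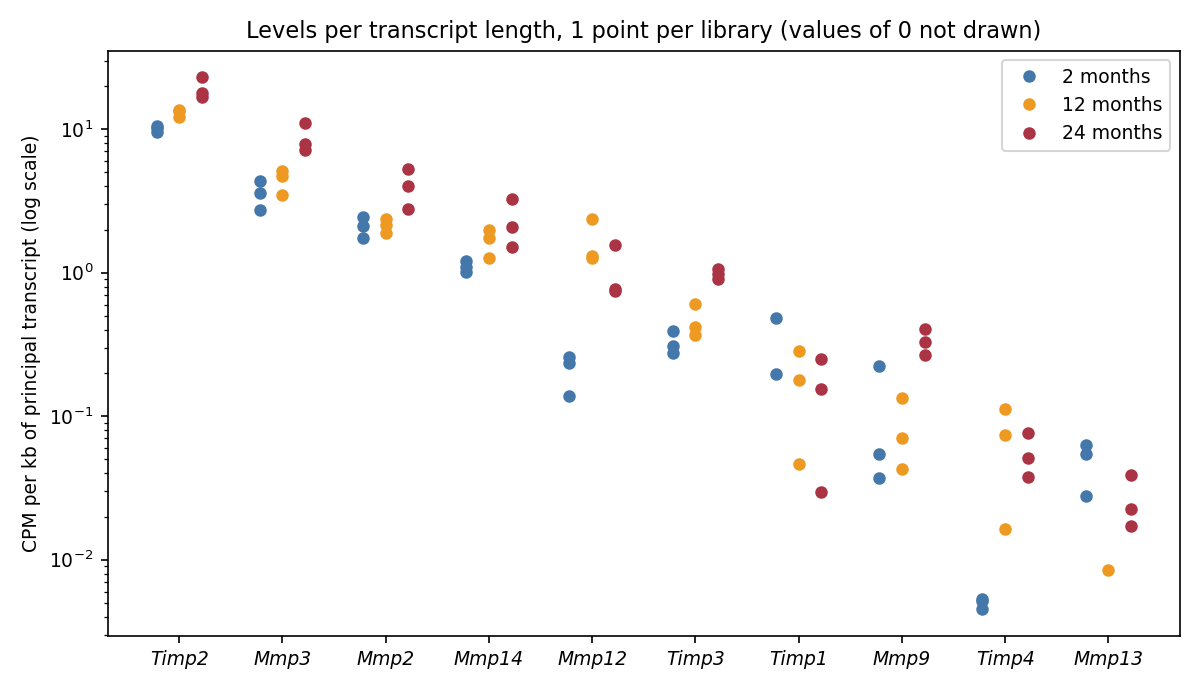
Level of each of the 10 transcripts at the 3 ages in CPM per kilobase of the principal transcript, on a log axis, 1 point per library, values of 0 not drawn. Timp2, Mmp3 and Mmp2 are the 3 most abundant at each age, and Mmp12 stands beside Mmp14 at 12 months.

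The age comparison asked which of these genes differed between young, middle-aged and old glands. At 24 months against 2 months, edgeR called 7 of the 9 genes that could be tested as higher (quasi-likelihood test, threshold of 0.05 on adjusted p): Mmp2, Mmp3, Mmp12, Mmp14, Timp2, Timp3 and Timp4. Across all tested genes, 9.82% rose and 7.56% fell in that comparison. At 12 months against 2 months, Mmp12 and Timp4 rose, 2 of 9, where 5.41% of all genes rose and 2.52% fell. At 24 months against 12 months, 4 of 9 rose, Mmp2, Mmp3, Timp2 and Timp3, where 2.79% of all genes rose and 1.6% fell. None of the 9 fell in any of the 3 comparisons. At an unadjusted p under 0.05 edgeR also had 0 lower in each, and DESeq2 had 1 lower at 24 against 12 months and 0 in the others. Of all calls, 68.2% at 12 against 2 months and 56.5% at 24 against 2 months were higher. With library totals alone as the scaling these shares were 95.3% and 93.2%, because that scaling moved the median log2 change of all genes to 0.31 in both. Over the 3 ages together, 7 of 9 differed, where 17% of all genes did. Mmp13 had too few counts for the filter. Timp4, with 1 count in each 2-month library, passed the filter only through libraries of the later ages, where it was higher. Its calls against 2 months therefore add no separate support to the counts of genes that rose.

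The counts of calls depended on single libraries. At 12 against 2 months 1 gene was called without replicate 1, 2 or 3 at 2 months or without replicate 2 or 3 at 12 months, and Mmp12 was that gene in each. In that order these fits called 1064, 435, 594, 445 and 1270 of all genes, against 1185 with all 9 libraries. At 24 against 2 months 4 were called without replicate 2 at 2 months. That fit called 1160 of 15498 genes, against 2597 of 14944 with all 9 libraries. At 24 against 12 months 1 was called without replicate 1 or 2 at 12 months or replicate 3 at 24 months, and 2 without replicate 1 at 24 months. In that order these fits called 312, 360, 386 and 582 of all genes, against 656 with all 9 libraries. At 24 against 12 months edgeR also called 0 members with library totals as the only scaling, and 0 without the 2 libraries that carried muscle transcripts. In each of these 2 fits 5 members were higher at an unadjusted p under 0.05, and 340 and 132 of all genes were called. DESeq2 called 5 with all 9 libraries.

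The median log2 change of the 9 genes was 0.38 at 12 against 2 months, 1.29 at 24 against 2 months and 0.55 at 24 against 12 months. The corresponding medians over all tested genes were 0.00668, 0.00876 and -0.0184. The comparisons with 2 months share the same 3 young libraries, so they are given side by side and not as separate evidence.

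**Figure D2:**
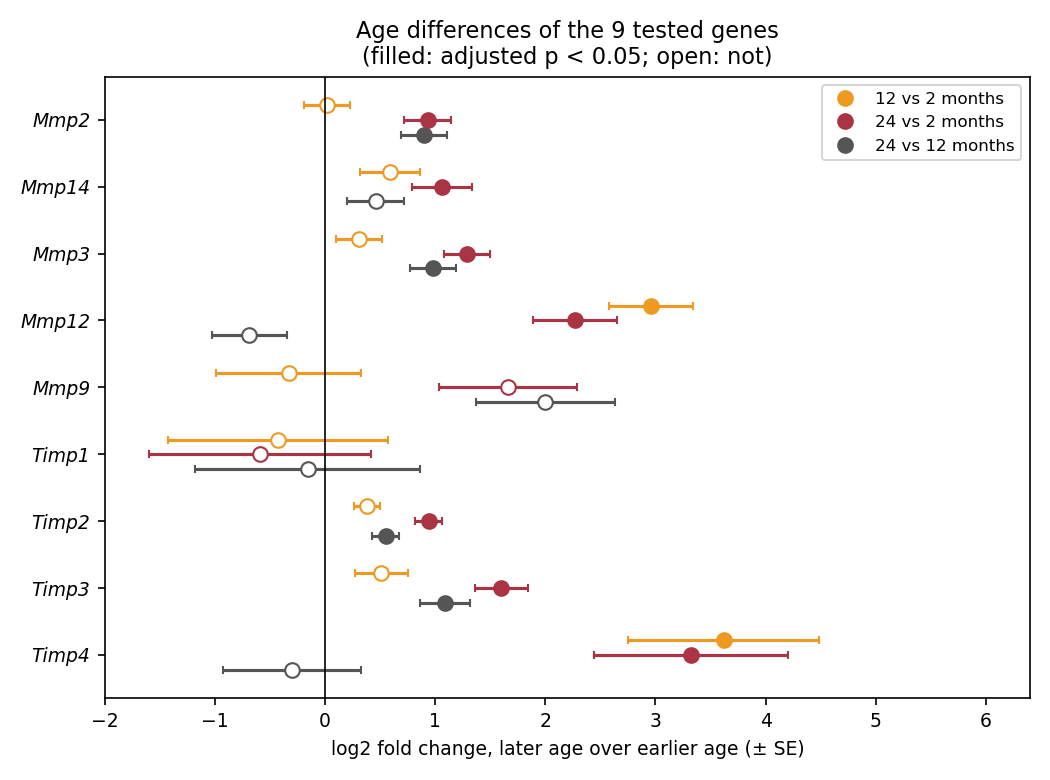
Log2 fold change of the 9 tested genes between ages, with bars for ± SE. Filled points have an edgeR adjusted p under 0.05, and the 7 filled points for 24 against 2 months all lie to the right of 0. The points for Timp4 are fitted values from 3 counts in all at 2 months.

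Mmp2, gelatinase A, cuts denatured collagen and basement membrane collagen. Its gene is chr8:92827291-92853420, plus strand. Its level was 6.55, 5.37 and 7.5 CPM in the 2-month libraries, 5.83, 6.66 and 7.27 CPM at 12 months, and 12.3, 8.48 and 16.2 CPM at 24 months. The young and middle-aged libraries overlapped, and all 3 old libraries lay above both. The log2 change was 0.02 ± 0.21 (SE) at 12 against 2 months (edgeR adjusted p = 0.964), 0.93 ± 0.21 at 24 against 2 months (adjusted p = 0.0121) and 0.9 ± 0.21 at 24 against 12 months (adjusted p = 0.031). The rise over 2 months missed the threshold without replicate 2 at 2 months (adjusted p = 0.0608) and with limma voom (adjusted p = 0.0538). The rise over 12 months missed it without replicate 1 or 2 at 12 months or replicate 1 or 3 at 24 months, where adjusted p was 0.0595 to 0.117. It also missed it when only the 6 libraries compared were fitted, at 0.0538, and with limma voom, at 0.0728. The same held with library totals alone and without the 2 libraries with muscle transcripts. The highest adjusted p of this rise under any alternative was 0.339.

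Mmp14, the membrane-bound metalloproteinase MT1-MMP, activates the Mmp2 precursor at the cell surface in a complex with Timp2. Its gene is chr14:54431612-54445364, plus strand. Its level was 2.64, 2.85 and 3.11 CPM at 2 months, 3.27, 5.15 and 4.54 CPM at 12 months, and 3.9, 5.43 and 8.52 CPM at 24 months. Every library from the 2 later ages lay above every young library, while the later ages overlapped. The log2 change was 0.59 ± 0.27 at 12 against 2 months (edgeR adjusted p = 0.207), 1.06 ± 0.27 at 24 against 2 months (adjusted p = 0.0195) and 0.46 ± 0.26 at 24 against 12 months (adjusted p = 0.37). The call at 24 against 2 months was lost without replicate 1, 2 or 3 at 2 months (adjusted p = 0.0556, 0.0704 and 0.0507) and without replicate 3 at 24 months (0.0861), where the log2 change was 0.71. It was also lost without the 3 libraries highest in salivary transcripts (adjusted p = 0.104). Per length, Mmp2 stood at 1.9 ± 0.273 times Mmp14 at 2 months, 1.31 ± 0.207 times at 12 months and 1.86 ± 0.707 times at 24 months. The highest of these ratios in a single library was 2.66, in replicate 1 at 24 months.

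Mmp9, gelatinase B, is a product of neutrophils and macrophages and is measured in tears in dry eye. Its gene is chr2:164940780-164955850, plus strand. Its counts were few: 7, 4 and 25 in the young libraries, 19, 11 and 6 in the middle-aged and 40, 56 and 42 in the old. These are 0.174, 0.117 and 0.707 CPM, then 0.429, 0.225 and 0.136 CPM, then 1.05, 1.28 and 0.846 CPM. All 3 old libraries lay above the other 6, and replicate 3 at 2 months, the library with the most salivary transcripts, was the highest of those 6. The log2 change at 24 against 2 months was 1.66 ± 0.63 (edgeR adjusted p = 0.0887) and at 24 against 12 months 2 ± 0.63 (adjusted p = 0.0993), so neither passed. At 12 against 2 months it was -0.33 ± 0.66 (adjusted p = 0.821). Without replicate 3 at 2 months, Mmp9 passed at 24 against 2 months, with a log2 change of 2.82 (adjusted p = 0.0223), and the change at 12 against 2 months turned to 0.83. Its difference at 24 against 2 months also passed with DESeq2 (adjusted p = 0.0469), library totals alone (0.0483) and no count filter (0.0254). At 24 against 12 months it passed with DESeq2 (adjusted p = 0.0278) and with no count filter (0.00814).

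Neutrophil markers were low at 2 months and, like Mmp9, had their highest values at 24 months. The 8 neutrophil genes summed to 0.0294 to 0.723 CPM at 2 months, 0.791 to 1.33 CPM at 12 months and 1.15 to 3.16 CPM at 24 months. Among defining markers, Ly6g had 1 count in all 9 libraries together. S100a8 counts were 0 in the young libraries, 0, 1 and 1 in the middle-aged and 1, 20 and 20 in the old, so replicate 1 at 24 months had 40 counts of Mmp9 beside 1 of S100a8. Of the 8 genes only Csf3r passed the filter, and it rose at 24 against 2 months (log2 change 2.23 ± 0.7, edgeR adjusted p = 0.0447). The part of these cells in the Mmp9 values was not tested.

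Mmp3, stromelysin, cuts proteoglycans, laminin and fibronectin and activates other metalloproteinase precursors. Its gene is chr9:7445822-7455975, plus strand, and its AP-1 and TATA box letters are those shown above. Its level was 6.5, 4.9 and 7.84 CPM at 2 months, 6.23, 9.16 and 8.45 CPM at 12 months, and 14.2, 13 and 20 CPM at 24 months. Young and middle-aged libraries overlapped, and the old libraries lay above both. The log2 change was 0.31 ± 0.21 at 12 against 2 months (edgeR adjusted p = 0.421), 1.29 ± 0.21 at 24 against 2 months (adjusted p = 0.0025) and 0.98 ± 0.21 at 24 against 12 months (adjusted p = 0.019). The rise over 2 months kept its call under each of 21 alternatives. The rise over 12 months lost it without replicate 1 at 12 months (adjusted p = 0.0784) or replicate 3 at 24 months (0.0636). It also lost it with library totals alone and without the 2 libraries with muscle transcripts. The highest adjusted p of this rise under any alternative was 0.348.

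Mmp12, macrophage elastase, cuts elastin and is made chiefly by macrophages. Its gene is chr9:7344381-7369499, plus strand, and its end overlaps Mmp1b on the opposite strand, which had 0 counts in every library. Its level was 0.847, 0.499 and 0.934 CPM at 2 months, 4.7, 4.54 and 8.59 CPM at 12 months, and 2.67, 5.62 and 2.76 CPM at 24 months. Every later library lay above every young one, replicate 3 at 12 months was the highest, and the later ages overlapped. Mmp12 rose at 12 against 2 months by a log2 change of 2.96 ± 0.38 (edgeR adjusted p = 0.00108) and at 24 against 2 months by 2.27 ± 0.38 (adjusted p = 0.00288). At 24 against 12 months the change was -0.69 ± 0.34 (adjusted p = 0.295). Both calls held under each of 21 alternatives, and without the 2 libraries that carried muscle transcripts the change at 12 against 2 months was 2.56 (adjusted p = 0.00769).

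The sum of 12 macrophage markers was, like Mmp12, higher at both later ages than at 2 months. From 12 to 24 months the sum was higher still, while mean Mmp12 was 5.94 ± 2.29 and then 3.68 ± 1.68 CPM. Lyz2 was the largest part of the sum at both later ages, with means of 20.7, 106 and 132 CPM at 2, 12 and 24 months. Mertk (4.39 and 2.7 CPM) and Cd14 (5.64 and 5.12 CPM) had lower means at 12 than at 2 months, neither called. The 12 macrophage genes summed to 98, 65.6 and 89.7 CPM at 2 months, 180, 240 and 208 CPM at 12 months, and 241, 275 and 344 CPM at 24 months, and none was at 0 in all libraries. At 12 against 2 months 4 of the 12 rose and 1 fell, and at 24 against 2 months 8 rose. Cd68, a lysosomal protein of macrophages, rose by a log2 change of 1.97 ± 0.19 at 12 months (edgeR adjusted p = 0.000461) and 2.32 ± 0.19 at 24 months (adjusted p = 4.58e-05), both against 2 months. Cd163, a haemoglobin scavenger receptor, fell at 12 against 2 months (-2.59 ± 0.51, adjusted p = 0.0103) and rose at 24 against 12 months (3.33 ± 0.51, adjusted p = 0.00353). Per 100 CPM of the 12 genes, Mmp12 stood at 0.889 ± 0.142 CPM at 2 months, 2.88 ± 1.14 at 12 months and 1.32 ± 0.646 at 24 months. The 3 middle-aged libraries had 2.61, 1.89 and 4.13, and replicate 2 at 24 months had 2.04, so the later ages overlapped. The part of these cells in the Mmp12 values was not tested.

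Mmp13, a collagenase of mouse connective tissue, was near the limit of detection. Its gene is chr9:7272514-7283331, plus strand. Its counts were 3, 5 and 6 in the young libraries, 0, 0 and 1 in the middle-aged and 4, 2 and 3 in the old. By summed counts the level at 12 months was 0.057 times that at 2 months, with a 95% exact interval of 0.00135 to 0.375 that covers counting error only. The level at 24 months was 0.536 times that at 2 months, with an interval of 0.204 to 1.33. With no count filter, the edgeR adjusted p at 12 against 2 months was 0.162. The 6 cartilage and bone genes beside it summed to 0.523 to 1.05 CPM at 2 months, 0.587 to 1.36 CPM at 12 months and 0.838 to 1.12 CPM at 24 months. Of these, Chad had 18 to 58 counts per library, Bglap, Col10a1 and Sp7 had 0 to 6, and Col2a1 and Ibsp had 0 in every library. The part of such cells in the Mmp13 values was not tested. Of the 3 genes with AP-1 letters, Mmp13 was not tested, and Mmp3 and Mmp12 rose at 24 against 2 months. At 12 against 2 months Mmp12 rose while Mmp3 did not pass the test. Mmp14, Timp2, Timp3 and Timp4, whose windows lacked these letters, also rose at 24 against 2 months, and Timp1, which lacked them too, was not called. Of all tested genes, 9.82% rose in that comparison. A link between the letters and these changes was not tested.

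**Figure D3:**
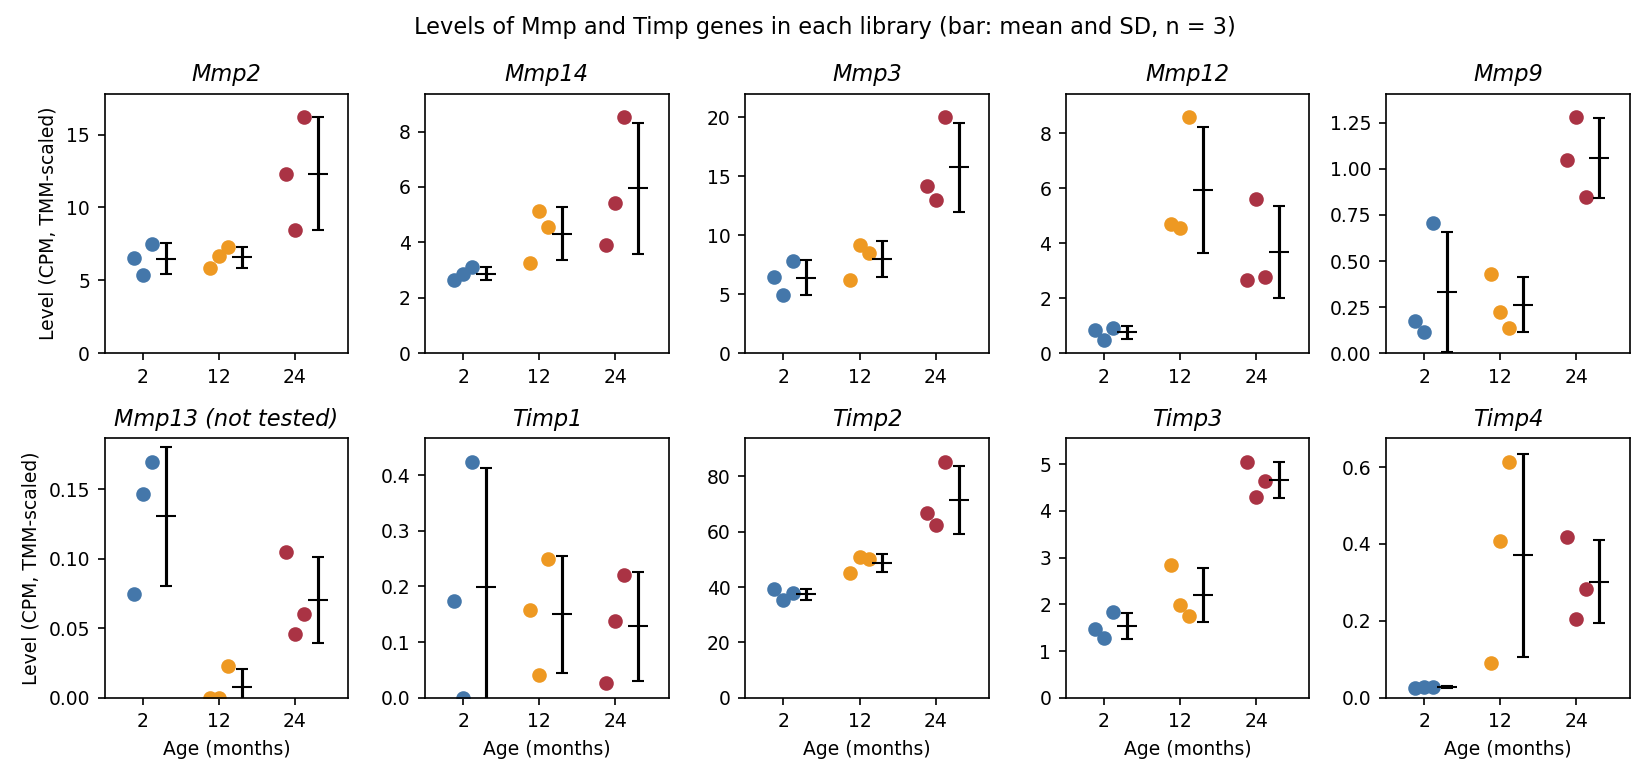
Level of each of the 10 genes in every library, in CPM, at 2, 12 and 24 months, with the mean and SD of the 3 libraries (bars end at 0). Mmp2, Mmp3, Timp2 and Timp3 are highest in the 3 old libraries, and Mmp12 is above the young libraries at both later ages.

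Timp2 is the inhibitor that also takes part in Mmp2 activation by Mmp14. Its gene is chr11:118301069-118355740, minus strand. Its level was 39.2, 35.4 and 37.7 CPM at 2 months, 45.1, 50.9 and 50.2 CPM at 12 months, and 66.8, 62.4 and 85.3 CPM at 24 months. The 3 ages did not overlap and stood in order of age. The log2 change was 0.38 ± 0.12 at 12 against 2 months (edgeR adjusted p = 0.068), 0.94 ± 0.12 at 24 against 2 months (adjusted p = 0.000602) and 0.55 ± 0.12 at 24 against 12 months (adjusted p = 0.0201). The call at 24 against 2 months held under each of 21 alternatives. The difference at 12 months passed without replicate 3 at 24 months (adjusted p = 0.0218), with DESeq2 (0.0295), with library totals alone (0.0307, where the median of all genes also moved), with no count filter (0.0236) and in a fit of only the 6 libraries compared (0.0258). The rise at 24 against 12 months lost its call without replicate 1 (adjusted p = 0.0867) or 2 (0.0521) at 12 months and without the 3 libraries highest in salivary transcripts (0.0954). It also lost it with library totals alone and without the 2 libraries with muscle transcripts. The highest adjusted p of this rise under any alternative was 0.345.

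Timp3 binds to the matrix and inhibits Adam and Adamts proteases as well as metalloproteinases. Its gene is chr10:86300372-86349506, plus strand, inside Syn3 on the opposite strand, with 1733 shared exonic bases. Syn3 had 5 to 20 counts per library and Timp3 had 44 to 230. The strand setting of the counting is not given in the sources used here, so reads in the shared bases cannot be told apart. Timp3 stood at 1.47, 1.29 and 1.84 CPM at 2 months, 2.85, 1.98 and 1.75 CPM at 12 months, and 5.05, 4.29 and 4.63 CPM at 24 months. The old libraries lay above the other 6, which overlapped. The log2 change was 0.51 ± 0.24 at 12 against 2 months (edgeR adjusted p = 0.224), 1.6 ± 0.24 at 24 against 2 months (adjusted p = 0.00163) and 1.09 ± 0.23 at 24 against 12 months (adjusted p = 0.0209). The call at 24 against 2 months held under each of 21 alternatives. The call at 24 against 12 months was lost without replicate 2 or 3 at 12 months, without replicate 1 or 3 at 24 months (adjusted p = 0.058 to 0.0765) and without the 3 libraries highest in salivary transcripts (0.173). It was also lost with library totals alone and without the 2 libraries with muscle transcripts. Per length, Timp3 was 0.0322 ± 0.00538 of Timp2 at 2 months, 0.0359 ± 0.012 at 12 months and 0.052 ± 0.00858 at 24 months.

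Timp4, an inhibitor known from heart and fat tissue, rested on few counts. Its gene is chr6:115241892-115252205, minus strand, inside Syn2 and Gm17482 on the opposite strand. It shares 90 exonic bases with Syn2, which had 0 to 7 counts per library. Timp4 had 1 count in each young library, 4, 20 and 27 in the middle-aged and 16, 9 and 14 in the old. Every later library lay above every young one, and the later ages overlapped. By summed counts it was 13.6 times higher at 12 than at 2 months, with a 95% exact interval of 4.39 to 68, and 10.8 times higher at 24 than at 2 months, with an interval of 3.44 to 54.8. Both intervals cover counting error only and not the spread between libraries. It rose in both comparisons (edgeR adjusted p = 0.0251 and 0.0239). It had passed the count filter only through libraries of the later ages, and with a minimum count of 20 it was not tested. The call at 12 months was lost without any 1 of the 3 young libraries and without replicate 2 or 3 at 12 months (adjusted p = 0.0678 to 0.096). The call at 24 months was lost without any 1 of the young libraries and without replicate 1 or 3 at 24 months (adjusted p = 0.0548 to 0.0797). Without the 3 libraries highest in salivary transcripts the adjusted p was 0.272 and 0.141, and with limma voom 0.117 and 0.0871. At 12 months it was also lost without the 2 libraries with muscle transcripts (adjusted p = 0.0529).

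The sum of adipocyte markers was, like Timp4, higher at both later ages than at 2 months. The 10 adipocyte genes summed to 11.4, 8.98 and 11.9 CPM at 2 months, 20.6, 56.4 and 57.8 CPM at 12 months, and 36.8, 55.2 and 32.4 CPM at 24 months. At 12 against 2 months 8 of 10 rose and at 24 against 2 months 9 of 10 rose. Adipoq encodes adiponectin, a hormone of fat cells. It had 1 count in each young library, 4, 97 and 90 in the middle-aged and 50, 130 and 15 in the old. Replicate 1 at 12 months had the lowest value of its age for both Timp4 and Adipoq. At 24 months replicate 2 had the highest Adipoq and the highest adipocyte sum but the lowest Timp4. Per 100 CPM of the 10 genes, Timp4 stood at 0.261 ± 0.0578 CPM at 2 months, 0.742 ± 0.312 at 12 months and 0.794 ± 0.388 at 24 months. At 2 months most of this sum was Lpl, at 7.91 ± 1.57 CPM, while mean Adipoq was 0.0275 CPM. Mean Adipoq was 1.37 CPM at 12 months and 1.53 CPM at 24 months. The ratio at 2 months also rests on 1 Timp4 count per library, so these ratios do not give Timp4 per fat cell. The part of these cells in the Timp4 values was not tested.

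Timp1, the inhibitor usually induced by inflammatory cytokines, was low at every age. Its gene is chrX:20870166-20874735, plus strand, inside Syn1 on the opposite strand with 0 shared exonic bases. Its counts were 7, 0 and 15 in the young libraries, 7, 2 and 11 in the middle-aged and 1, 6 and 11 in the old, and all ages overlapped. The log2 change was -0.43 ± 1 at 12 against 2 months (edgeR adjusted p = 0.85), -0.59 ± 1.01 at 24 against 2 months (adjusted p = 0.743) and -0.16 ± 1.02 at 24 against 12 months (adjusted p = 0.954). By summed counts the level at 24 months was 0.682 times that at 2 months, with a 95% exact interval of 0.345 to 1.33 for counting error only.

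Fibroblast markers moved with the genes that were highest at 24 months. The 8 fibroblast genes summed to 30.9, 24.1 and 34.4 CPM at 2 months, 32.4, 38.3 and 35.4 CPM at 12 months, and 65.2, 45.9 and 78.2 CPM at 24 months. Replicate 3 at 24 months was the highest for this sum and for Mmp2, Mmp3, Mmp14 and Timp2. This was not particular to fibroblasts. The same library was the highest of the 9 for the sums of the macrophage genes (344 CPM), 6 endothelial genes (34.9 CPM) and 5 genes of mural cells of vessels (24.1 CPM). At 24 against 2 months 7 of the 8 rose and at 24 against 12 months 4 rose. Pdgfra, a growth factor receptor of fibroblasts, rose by 1.27 ± 0.26 on the log2 scale at 24 against 2 months (edgeR adjusted p = 0.00787). Per 100 CPM of the 8 genes, Mmp2 stood at 21.8 ± 0.545, 18.6 ± 1.67 and 19.3 ± 1.17 CPM at the 3 ages. Mmp3 stood at 21.4 ± 1.26, 22.3 ± 2.69 and 25.2 ± 3.26 CPM, and Timp2 at 128 ± 18.6, 138 ± 4.61 and 116 ± 17.7 CPM. Timp3 stood at 5.16 ± 0.344, 6.3 ± 2.15 and 7.67 ± 1.71 CPM. Mmp14 stood at 9.8 ± 1.76, 12.1 ± 1.78 and 9.57 ± 3.14 CPM. Set against these markers, the old libraries lay below the young for Mmp2 (18.5 to 20.7 against 21.2 to 22.3), above them for Timp3 (5.92 to 9.34 against 4.76 to 5.36) and overlapped with them for Mmp3, Mmp14 and Timp2. The sum includes Thy1, which mouse T cells also express and which stood at 4.37 ± 1.3 CPM at 2 months and 14.9 ± 4.51 at 24 months. The T-cell genes Cd3e, Cd3d, Cd4 and Cd8a rose between these ages too. Ratios without Thy1 are not given, so the separation for Mmp2 holds for this list only. The part of fibroblasts in these values was not tested.

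**Figure D4:**
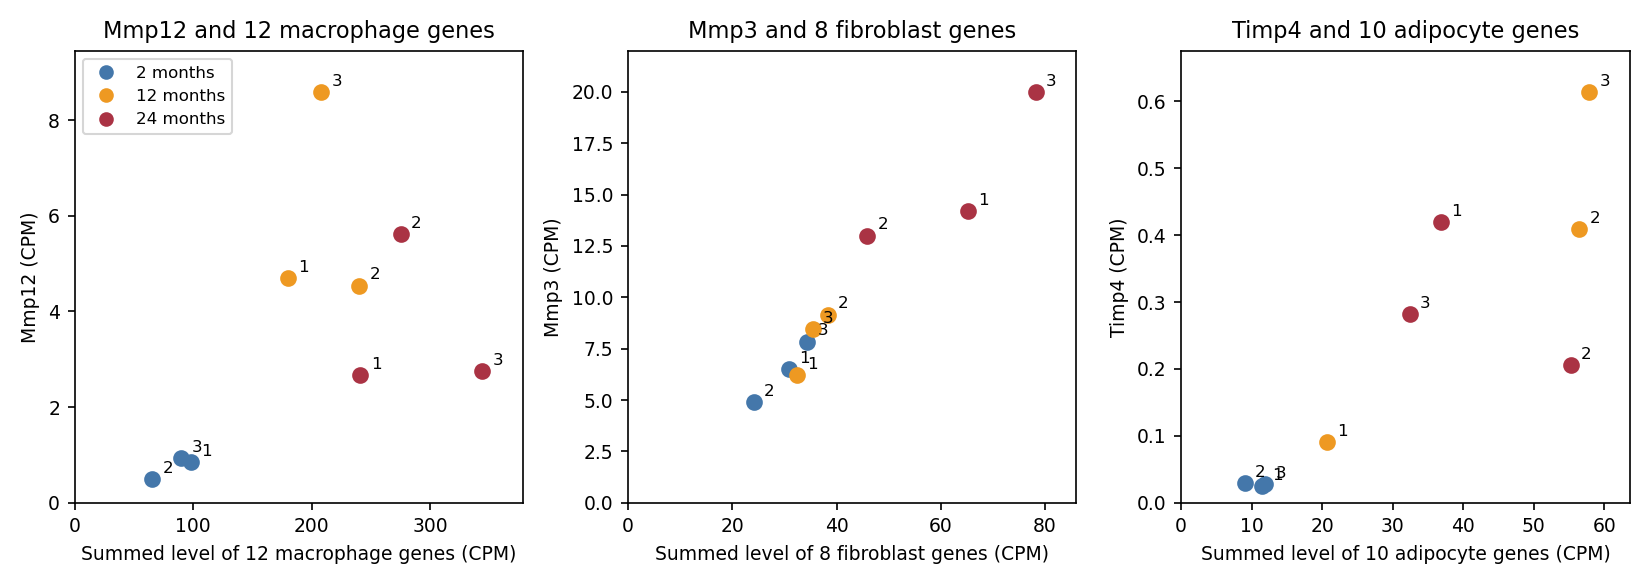
Level of Mmp12, Mmp3 and Timp4 (CPM, vertical) against the summed level of macrophage, fibroblast and adipocyte genes (CPM, horizontal) in the same 9 libraries, numbered by replicate and coloured by age. Mmp12 is highest in replicate 3 at 12 months, with 208 CPM of macrophage genes, and Mmp3 is highest in the library with 78.2 CPM of fibroblast genes.

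The summed level of the 6 metalloproteinases and that of the 4 inhibitors were both highest at 24 months. The enzymes summed to 7.14 ± 1.37, 9.95 ± 1.67 and 16.4 ± 3.73 CPM per kilobase at the 3 ages, and the inhibitors to 10.6 ± 0.718, 13.9 ± 0.751 and 20.5 ± 3.38. The ratio of enzymes to inhibitors in single libraries was 0.639, 0.591 and 0.774 in the young glands, 0.621, 0.74 and 0.785 in the middle-aged and 0.755, 0.783 and 0.851 in the old. The ages overlapped in this ratio of transcripts, which was below 1 in all 9 libraries. The ratio holds for these 10 genes only. It leaves out Mmp15, which stood at 29.8, 19.3 and 38.6 CPM at the 3 ages, where Mmp2 stood at 6.48, 6.59 and 12.3. The ratio is therefore not that of all enzymes to inhibitors in the gland.

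Among other genes of the pathway, 6 of 17 further metalloproteinases could be tested, with a median log2 change of -0.03 at 12 against 2 months and 0.93 at 24 against 2 months. Mmp15, a membrane-type enzyme, fell at 12 against 2 months, from 29.8 ± 2.29 to 19.3 ± 1.89 CPM (log2 change -0.63 ± 0.1, edgeR adjusted p = 0.00427). It then rose to 38.6 ± 3.39 CPM at 24 months (1 ± 0.1 against 12 months, adjusted p = 0.000311). Mmp19 rose at 24 against 2 months, from 0.213 ± 0.122 to 0.887 ± 0.384 CPM (adjusted p = 0.0195). The rest of the chromosome 9 cluster had few counts: Mmp1a, Mmp1b and Mmp20 had 0 counts, and Mmp10, Mmp7, Mmp8 and Mmp27 had 2, 3, 14 and 41 counts in all 9 libraries together.

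Of 12 Adam genes, membrane-anchored proteases, 11 were tested and 2 rose at 12 against 2 months, while 3 rose and 1 fell at 24 against 2 months (medians 0.35 and 0.41). Adam8, found on leukocytes, rose from 0.0909 ± 0.00777 CPM at 2 months to 1.15 ± 0.104 at 12 months (edgeR adjusted p = 0.000744) and 1.53 ± 0.528 at 24 months (adjusted p = 0.000185). Of 19 Adamts genes, 10 were tested and 2 rose at 24 against 2 months, the aggrecan-cutting Adamts15 (log2 change 0.86 ± 0.16, adjusted p = 0.00492) and Adamts5 (1 ± 0.32, adjusted p = 0.0482). Of 8 genes of the plasminogen system, which activates metalloproteinase precursors, 4 were tested. The urokinase receptor Plaur rose at 12 against 2 months (2.09 ± 0.42, adjusted p = 0.0107) and urokinase, Plau, rose at 24 against 2 months (1.07 ± 0.29, adjusted p = 0.0267).

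Of 8 genes that bind, clear or process metalloproteinases, 7 were tested, 2 rose at 12 against 2 months and 4 at 24 against 2 months (medians 0.42 and 1.21). Lrp1, a receptor that takes up metalloproteinases and Timp complexes, stood at 11.6 ± 1.17, 16.5 ± 1.25 and 26.9 ± 3.62 CPM at the 3 ages. It rose in all 3 comparisons (edgeR adjusted p = 0.0251, 0.000139 and 0.00592 for 12 against 2, 24 against 2 and 24 against 12 months). Cd44, which can hold Mmp9 at the cell surface, rose at 12 against 2 months (1.73 ± 0.25, adjusted p = 0.00207) and at 24 against 2 months (1.76 ± 0.25, adjusted p = 0.00105).

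Of 16 inducers, cytokines and transcription factors, 12 were tested, 2 rose at 12 against 2 months, 2 at 24 against 2 months and 1 at 24 against 12 months (medians 0.27, 0.22 and -0.09). Jun, a subunit of AP-1, rose at 24 months over both 2 months (0.84 ± 0.21, edgeR adjusted p = 0.0178) and 12 months (0.98 ± 0.21, adjusted p = 0.021). At 24 against 2 months the AP-1 genes Fos (1.32 ± 0.58), Fosb (-0.17 ± 0.74), Fosl2 (0.17 ± 0.15) and Junb (0.15 ± 0.14) were not called. The cytokines Il1b (0.6 ± 0.49) and Tnf (-0.37 ± 0.52) were not called either. Fosl1, Jund, Il6 and Osm had too few counts for the filter. Jund had 2 counts in replicate 3 at 24 months and 0 in every other library. Whether the counting missed its reads was not tested. Ets1 rose at 12 against 2 months (2.41 ± 0.41, adjusted p = 0.00493). Tgfb1 rose at 12 against 2 months (0.84 ± 0.18, adjusted p = 0.0131) and at 24 against 2 months (0.58 ± 0.18, adjusted p = 0.0403). B-cell genes, 4 in number, summed to 0.226 to 0.274 CPM at 2 months, 73, 110 and 12.3 CPM at 12 months and 10.8 to 18.2 CPM at 24 months beside these values. The part of lymphocytes in them was not tested.

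Of 18 matrix genes, substrates of these enzymes, 17 were tested, with medians of -0.25, 0.5 and 0.73 at 12 against 2, 24 against 2 and 24 against 12 months. At 12 against 2 months 1 fell, the basement membrane collagen Col4a1 (-0.82 ± 0.12, edgeR adjusted p = 0.00266). At 24 against 12 months 5 rose, Col4a1 (0.79 ± 0.12, adjusted p = 0.00425), Col4a2, Col6a1 and the proteoglycans Bgn and Dcn. At 24 against 2 months 5 rose, Bgn, Dcn, Col6a1, Nid1 and Fn1. Fn1, fibronectin, went from 0.849 ± 0.748 to 3.73 ± 1.82 CPM (adjusted p = 0.0249).

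For each of the 7 genes that differed over the 3 ages, the genes most like it were found among 9486 candidates, by the root mean square difference of centred log2 CPM over the 9 libraries. For Mmp2 they were Gsn, Fbln1 and Serpinf1, at 0.101 to 0.136, and for Mmp3 Pdgfra, Aebp1 and Fst, at 0.14 to 0.161. For Mmp14 they included Cx3cr1 at 0.162 and Trpm6 at 0.171. For Timp2 they were Steap4, Gprc5b and P4ha1, at 0.0899 to 0.0988, and for Timp3 they included Ssx2ip at 0.245 and Abca8a at 0.248. For Mmp12 and Timp4 the differences were larger: the nearest were Lgals3, Asgr1 and Gpr137b at 0.346 to 0.5, and Cd36, Cd68 and Ms4a7 at 0.503 to 0.597. Lgals3 stood at 4.44, 2.82 and 4.98 CPM at 2 months, 17.2, 21.3 and 34.5 CPM at 12 months, and 16.2, 31.7 and 24.8 CPM at 24 months. Like Mmp12 it had its highest value in replicate 3 at 12 months.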

How the data were processed

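Lacrimal gland RNA of 9 libraries was sequenced as 100 bp paired-end reads, per the labels' protocols. The authors deposited raw counts per Ensembl gene and log2 normalized counts. The submitters' processing notes name cutadapt, FastQC, STAR, HTSeq, DESeq2 and GRCm38 without versions or strand setting. The deposited log2 values equalled log2 of the size-scaled counts plus 1 within 1e-06 for 100% of entries, and were not tested. Symbols matched 54079 of 54232 gene identifiers.

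Counts were fitted with edgeR 4.0.16 (R 4.3.3; scaled by TMM, filtered by filterByExpr at 10 counts, 3 ages in 1 model, 6 residual degrees of freedom, quasi-likelihood F test, Benjamini-Hochberg over 14944 genes, threshold 0.05). SE is the change divided by the root of F. CPM uses TMM-scaled totals. The common coefficient of variation was 21.2%. Simulated log2 changes of 1 were recovered in 45%, 53% and 62% of genes, and of 2 in 72%, 81% and 77% (12 against 2, 24 against 2 and 24 against 12 months).

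All 10 members are named, with up to 4 called genes per list and comparison, and the 3 most similar genes per called member of at least 2 CPM, of which 2 are not reported here. Adipoq, S100a8, Ly6g, Col2a1, Ibsp and the cluster's other genes are given as defining markers or neighbours. AP-1 and cytokine genes that were not called are named beside Jun. Members and lists were chosen with earlier results of these data known. Alternatives were other scalings, filters and tools (DESeq2 1.42.0, limma 3.58.1 voom), a replicate block and left-out libraries. Positions are GENCODE M21 and sequences RefSeq.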

Additional observations from a re-analysis of the deposited data

How the results depend on the processing

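Of the values of single genes under the alternatives, 627 kept their direction and side of the threshold, 76 lost the call, 15 gained it and 16 changed sign, all of the last without a call. At an adjusted p under 0.01 the number of genes called was 1, 4, 0 and 4, against 2, 7, 4 and 7 at 0.05 (12 against 2, 24 against 2, 24 against 12 months and 3 ages). At 12 against 2 months it was 1 with a minimum count of 20, with limma voom, without the 3 libraries highest in salivary transcripts and without the 2 with muscle transcripts. At 24 against 12 months edgeR called 0 with library totals alone and 0 without the 2 libraries with muscle transcripts, with 5 higher at an unadjusted p under 0.05 in each, and 2 without the 3 libraries highest in salivary transcripts. DESeq2 called 5 with all 9 libraries. Over the 3 ages limma voom called 4. Leaving out 1 library gave 1 to 3, 4 to 7, 1 to 4 and 5 to 7. The cause was not tested.

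Library totals alone moved the median of all genes by 0.31 (log2) in both comparisons with 2 months, and no gene of the family changed direction with it. Over all genes, 1185, 2597 and 656 were called, against 1694, 2817 and 340 with library totals alone, 2026, 3148 and 1486 with no count filter, 1821, 3123 and 1208 with DESeq2, 383, 891 and 211 at an adjusted p under 0.01, 127, 626 and 170 without the salivary-rich libraries and 746, 2243 and 132 without the muscle-bearing ones. With 1 library left out it was 435 to 1285, 1160 to 2623 and 312 to 700.

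Signs changed only for small or thinly counted values. Mmp2 at 12 against 2 months was -0.06 with limma voom and -0.09 to 0.14 with 1 library left out. Mmp9 at 12 against 2 months was 0.93 without the salivary-rich libraries and -0.86 to 0.83 with 1 left out. Timp1 was 1.14 and 0.51 without the salivary-rich libraries (12 and 24 against 2 months), 0.05 with limma voom and 1.63 without the muscle-bearing libraries (24 against 12 months). With 1 library left out it was -1.01 to 0.69, -1.22 to 0.52 and -0.79 to 0.44. Timp4 at 24 against 12 months was 0 with limma voom and -0.76 to 0.28 with 1 left out.

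Same-numbered libraries did not deviate together (r from -0.15 to 0.06 over 9 pairs), and the main model took no pairs. With 3 libraries per age a weak pairing could be missed, so whether the numbers are pairs is not known. With the replicate block 1, 7, 4 and 6 genes of the family were called, and 701, 1886 and 409 of all genes. In this check 0 of the 9 libraries correlated best with its own number. Depth limits Mmp13, Timp1, Timp4 and Mmp9, whose counts per library were 56 or fewer.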
